A study of Homo sapiens with 6 samples.

Results

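The genes described here are 32 genes of DNA double-strand break repair, the Fanconi anaemia pathway and the signalling that goes with them. They were chosen by name, and all 32 were found among the 20660 gene names of the authors' deposited table, where they hold 240 of 82428 coding sequences. RNA was sequenced from FaDu cells, an established human line that came from a hypopharyngeal squamous carcinoma and is labelled as HNSCC (head and neck squamous cell carcinoma). One group received BB608, a compound known here only by this code name, and the other its vehicle DMSO, with 3 biological replicates in each and 6 libraries in all. Neither the dose nor the treatment time is stated in the labels, and the labels name the same line, with no genetic change, for both groups. The question is how BB608 changes the expression of these genes. The table gives 1 FPKM value per group for each coding sequence, pooled by the authors within the group. FPKM is fragments scaled to the length of the sequence and to the number of fragments mapped. The groups are named DMSO_subset and BB608_subset there, and what subset means is not explained. Whether a value holds all 3 libraries of its group is therefore not known. No value per library and no sequencing depth was used here, so the spread between replicates cannot be shown, and no p-value below comes from a test other than the authors' own, made with Cuffdiff.

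A double-strand break is rejoined along 2 main routes. In non-homologous end joining, the Ku heterodimer of XRCC5 and XRCC6 binds the ends, recruits the kinase encoded by PRKDC, and LIG4 with its partners seals them. In homologous recombination, which uses the sister chromatid and so works mainly in S and G2 phase, the ends are first cut back to single strands, and BRCA1, PALB2 and BRCA2 then help start the search for the matching sequence. The Fanconi anaemia pathway removes crosslinks between the strands and hands the resulting breaks to recombination. The kinases ATM and ATR sense breaks and exposed single strands and signal to the cell cycle through CHEK2 and CHEK1. People with inherited Fanconi anaemia have a raised risk of squamous carcinoma of the head and neck.

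No coding sequence of these genes changed between BB608 and DMSO by the authors' q. Among the 167 of theirs that were tested, 0 reached a Cuffdiff q under 0.05, and the smallest q was 0.997, in the authors' deposited table. The share called among all tested coding sequences was 0.354%, which for 167 would come to 0.591 calls. With p left unadjusted, 2 of the 167 were under 0.05, or 1.198%, 1 each in ATR and NBN, against 3.31% of all tested coding sequences. Counted by gene this is 2 of 31 tested members, or 6.45%, against 9.49% of all tested genes. PRKDC is the member without a test, because all 4 of its coding sequences carry a failed status.

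The FPKM values of a gene's coding sequences were added up to a gene sum, because the division of a gene's reads among overlapping coding sequences is uncertain. The gene sums of the 31 tested members lay close together in the 2 groups. Their log2 folds, BB608 over DMSO, ran from -0.17 for EXO1 to 0.49 for BARD1, with a median of 0.07, and 28 of 31 (90.3%) were within 0.25 of 0. Of all 10859 kept genes, those with a tested coding sequence, no failed one and 1 FPKM or more for the gene sum in the higher group, 70.1% were within 0.25, and their median was 0.03. The members were more abundant than the kept genes, with a median of 30.8 against 11.8 FPKM for the mean of both groups. In 22 of the 31 members (71.0%) the sum was higher in BB608, against 57.6% of kept genes. This was not particular to the members. Among the lists described below, it was higher in 57 of 81 other pathway genes, 23 of 33 G1/S and DNA replication genes and 22 of 32 G2/M and mitosis genes. No error can be given for a gene sum, so these are descriptions of the pooled values. In bulk RNA, fewer cells of a kind and less RNA per cell cannot be told apart.

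**Figure D1:**
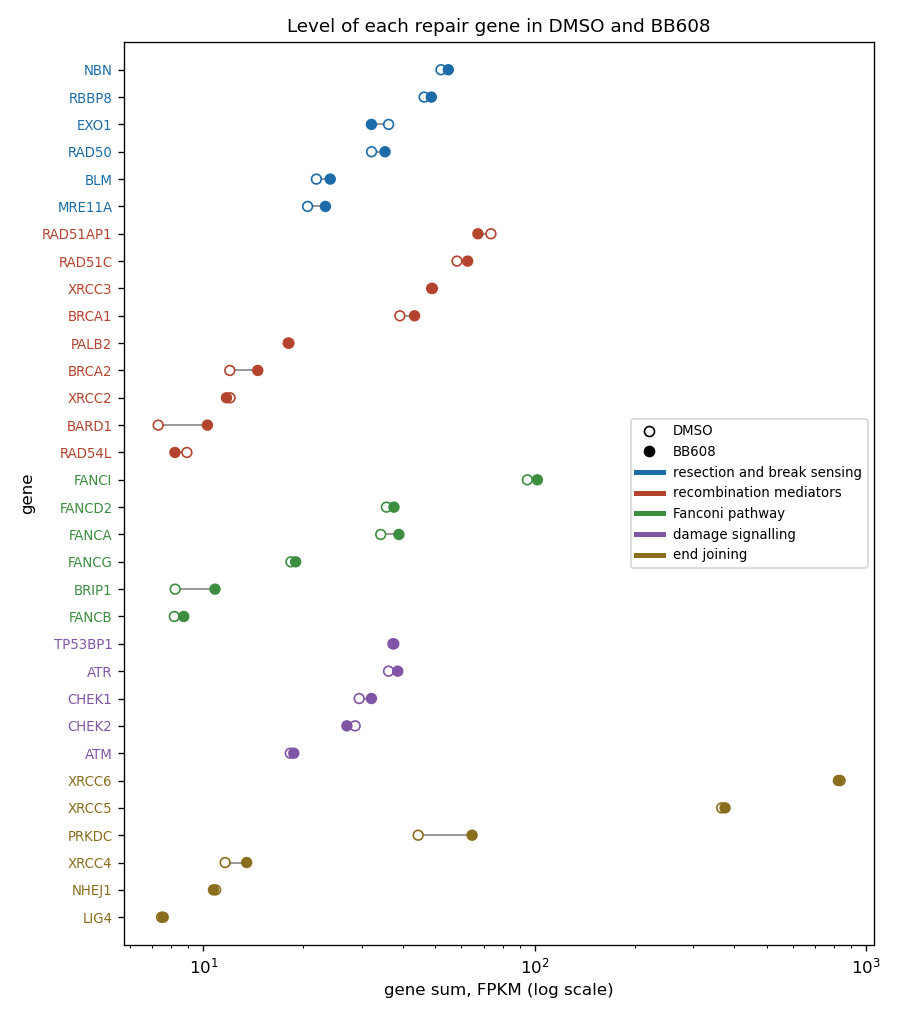
Gene sum in FPKM (log axis) of each of the 32 genes, by role, in DMSO (open circles) and BB608 (filled circles), each a value pooled within the group, with no error bar. XRCC6 and XRCC5 stand well to the right of the other 30 genes, and the longest lines joining a pair belong to PRKDC, BARD1 and BRIP1.

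**Figure D2:**
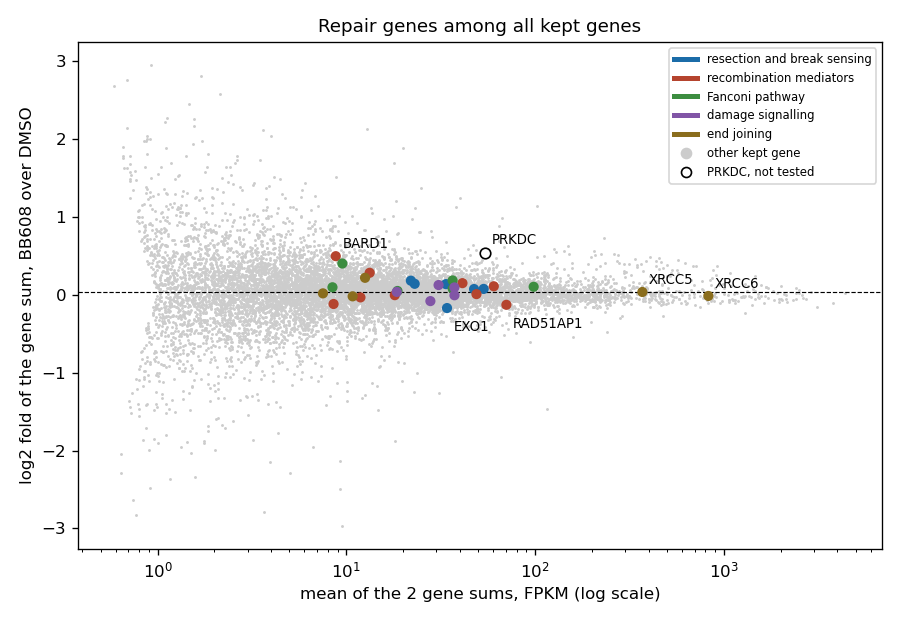
Log2 fold of the gene sum (BB608 over DMSO) against the mean gene sum in FPKM (log axis) for 10859 kept genes (grey) and the repair genes (coloured by role), with the median of kept genes dashed. The repair genes lie in the dense band around 0, between -0.17 and 0.49 for tested members; PRKDC, not tested, is the open circle at 0.54, and 29 kept genes beyond 3 log2 are not drawn.

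An error was derived for single coding sequences from the authors' fold, statistic and p, and is called the implied SE. It is an approximation that holds only the spread the authors' model estimated. The implied SE and its intervals are not in the deposited table, also where they are given beside values from it. Over the most abundant tested coding sequence of each member the implied SE ran from 0.11 to 1.41 log2, with a median of 0.27. The approximate 95% interval of that coding sequence lay wholly between -1 and 1 log2 in 21 of 31 members and between -0.5 and 0.5 in 10. For these sequences a fold change of 2 or more, or of 1.41 or more, lay outside the interval. For the other 10 members a change of that larger size is inside the interval on at least 1 side, so these data leave it possible. The ATR interval was the one of the 31 that did not reach 0.

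**Figure D3:**
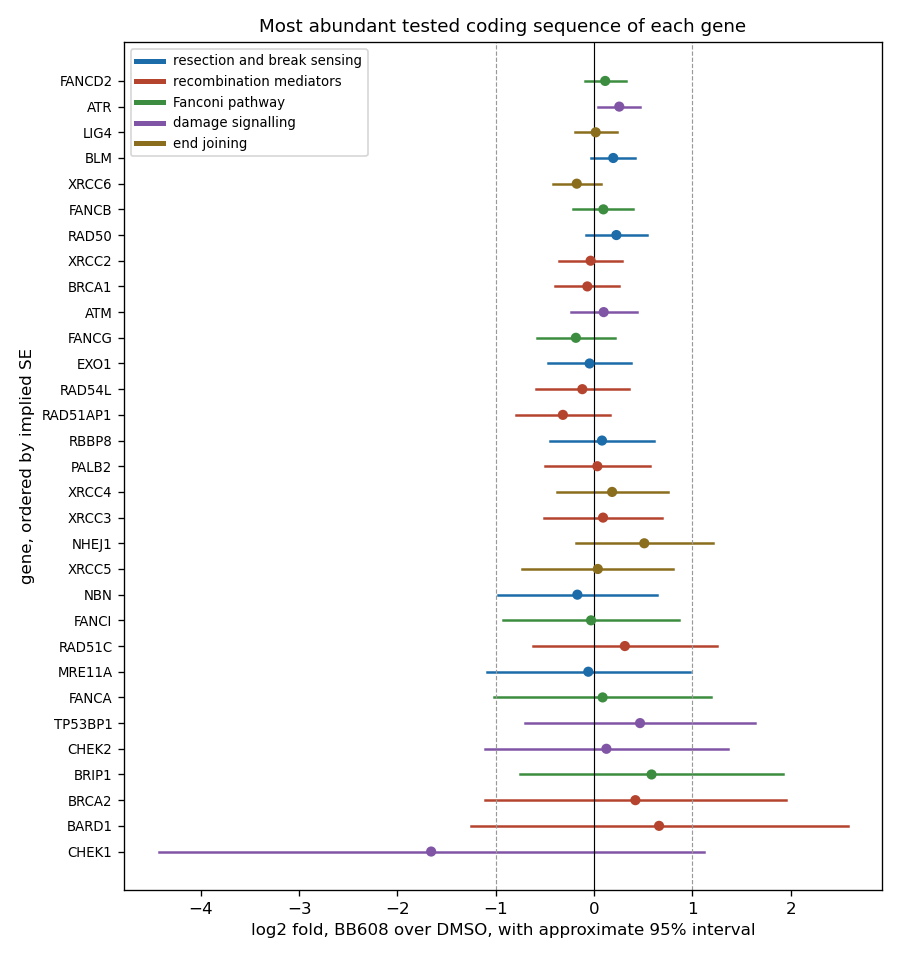
Log2 fold (BB608 over DMSO) of the most abundant tested coding sequence of 31 genes, with its approximate 95% interval from the implied SE, ordered by that SE; dashed lines mark -1 and 1. The intervals are narrowest for FANCD2, ATR and LIG4 and widest for CHEK1 and BARD1, and the ATR interval alone lies above 0.

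The promoters are shown because of a sequence feature that many of these genes have in common and that took no part in choosing them. Promoter sequence was taken from RefSeq (build GRCh38.p14), which matched 28 of the 32 genes, MRE11A under its current name MRE11. Both strands of the 250 bases before the gene start were searched for the letters of 8 motifs. CCGGAAG, the core bound by ETS family factors, was present in 11 of 28 members (39.3%), against 11.8% of 15843 promoters of protein-coding genes. These coding promoters were taken whether or not the gene was expressed in FaDu cells, so they are not matched to the members in level. The 11 are FANCD2, ATR, XRCC4, RAD50, MRE11A, ATM, BRCA2, LIG4, TP53BP1, BLM and PALB2. A match of letters is a description and not a binding site, and no binding was measured here. Windows of 6 of them, from all repair routes, follow 5′ to 3′ in the direction of the gene, with the 7 matching letters or their reverse complement in capitals.
ATR: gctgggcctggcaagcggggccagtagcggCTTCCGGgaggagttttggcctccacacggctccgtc
ATM: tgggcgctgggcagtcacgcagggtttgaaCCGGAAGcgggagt
RAD50: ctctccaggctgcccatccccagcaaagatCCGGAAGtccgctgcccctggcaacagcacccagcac
BRCA2: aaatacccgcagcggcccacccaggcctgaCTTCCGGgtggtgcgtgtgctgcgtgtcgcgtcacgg
FANCD2: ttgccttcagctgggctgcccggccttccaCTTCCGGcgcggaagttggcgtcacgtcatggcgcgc
LIG4: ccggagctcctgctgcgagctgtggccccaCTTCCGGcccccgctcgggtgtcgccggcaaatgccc

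These windows are at chr3:142578791-142578857 (minus strand) for ATR, chr11:108223023-108223066 (plus) for ATM, chr5:132556792-132556858 (plus) for RAD50, chr13:32315390-32315456 (plus) for BRCA2, chr3:10026338-10026404 (plus) for FANCD2 and chr13:108218455-108218521 (minus) for LIG4, all GRCh38.p14. The matched letters begin 94 bases before the gene start in ATR, 14 in ATM, 155 in RAD50, 88 in BRCA2 and 69 in FANCD2. Of the other motifs, the E2F core, searched as TTGGCGC, then with its last letter changed as TTGGCGG, then in the form TTCCCGC and in the form TTCGCGC, was in 5 of 28 member promoters (17.9%) against 15.8% of coding promoters. CCAAT was in 13 (46.4%) against 34.5%, the GC box GGGCGG in 20 (71.4%) against 56.0%, and the cyclic AMP response element TGACGTCA in 2 (7.14%) against 2.32%. The cell cycle element TTTGAA or TTCGAA was in 2 (7.14%) against 11.9%. The TATA box TATAAA was in 0 against 9.23% and the AP-1 site TGACTCA in 0 against 3.17%. The median GC content of the members' windows was 65.0%, against 62.4% for coding promoters.

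The genes of break sensing and end resection had 33 tested coding sequences, of which 0 were called and 1, in NBN, had an unadjusted p under 0.05. The MRN complex of MRE11A, RAD50 and NBN tethers broken ends and starts their resection. Its gene sums in DMSO and BB608 were 20.6 and 23.3 FPKM for MRE11A, 32.2 and 35.3 FPKM for RAD50, and 52.1 and 54.8 FPKM for NBN. All 3 were higher in BB608, by log2 folds of 0.18, 0.13 and 0.07. The most abundant coding sequence of MRE11A was instead slightly lower, at 6.74 and 6.47 FPKM (-0.06, implied SE 0.53), and that of RAD50 was higher, at 11.2 and 13.1 FPKM (0.23, implied SE 0.16, p 0.145), both in the authors' deposited table. The NBN coding sequence with the low p was at 9.50 FPKM in DMSO and 14.02 in BB608 in the authors' deposited table, where its log2 fold was 0.56, its p 0.0229 and its q 0.997 (implied SE 0.23). It is the third most abundant of 4 tested ones. The most abundant, at 20.9 and 18.5 FPKM, had -0.17 (implied SE 0.41), and the second, at 14.1 and 11.1 FPKM, had -0.34 in the deposited table. The coding sequences of NBN thus lay on both sides of 0 while their sum differed by 1.05-fold. The NBN locus spans 90945563 to 91064320 on chromosome 8 of hg19 as deposited.

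RBBP8, which encodes CtIP and starts resection together with MRN, had gene sums of 46.3 and 48.7 FPKM in DMSO and BB608. Its main coding sequence, at 13.3 and 14.04 FPKM, had 0.08 (implied SE 0.27) in the authors' deposited table. BLM, a helicase of long-range resection and of junction dissolution, had 21.9 and 24.1 FPKM. Most of BLM was 1 coding sequence, 91.3% of the sum in DMSO and 94.9% in BB608. That sequence, at 20.0 and 22.9 FPKM, had 0.19 log2 (implied SE 0.11; p 0.0811) in the authors' deposited table. EXO1, the exonuclease that extends the resected strand, had the lowest fold of all members, its sum being 36.2 in DMSO against 32.1 FPKM in BB608. Its most abundant coding sequence had a log2 fold of -0.05 (implied SE 0.22) in the deposited table, and of its 7 tested ones 3 were higher and 4 lower. Both helicase and nuclease thus differed by about 1.1-fold in opposite directions, without a call.

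The 9 genes of homologous recombination had 48 tested coding sequences, with 0 calls and 0 at an unadjusted p under 0.05. Their gene sums were higher in BB608 in 5 and lower in 4, with a median log2 fold of 0.01. BRCA1, a ubiquitin ligase subunit that favours recombination, had 39.1 in DMSO and 43.4 FPKM in BB608, spread over 28 coding sequences of which 14 were tested. The most abundant of these, at 12.1 and 11.6 FPKM, had -0.07 log2 (implied SE 0.17; p 0.68) in the authors' deposited table, against 0.15 for the sum. BARD1, the obligate partner of BRCA1, had 7.31 and 10.3 FPKM, the largest fold of any tested member at 0.49. The smallest p of its 4 tested coding sequences was 0.481 in the deposited table. The most abundant by the mean of both groups, at 2.55 and 4.02 FPKM, had 0.66 with an implied SE of 0.98. The one most abundant in DMSO, at 3.07 and 3.12 FPKM, had 0.02 with a smaller implied SE of 0.22. The gene sum of BRCA1 was 5.36 times that of BARD1 in DMSO and 4.22 times in BB608, on a scale already corrected for length.

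PALB2, which bridges BRCA1 and BRCA2, was nearly the same in both groups, at 18.1 and 18.0 FPKM. Its main coding sequence had a log2 fold of 0.03 (implied SE 0.27) in the authors' deposited table. BRCA2, a central mediator of recombination, had 12.0 in DMSO and 14.6 FPKM in BB608. All 3 of its tested coding sequences were higher in BB608, with log2 folds of 0.42, 0.34 and 0.03 in the deposited table. The second of these, at 3.99 and 5.05 FPKM, had the lowest p, 0.126.

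Among the mediators that help strand exchange begin, RAD51C had 58.2 and 62.7 FPKM, XRCC3 48.8 and 49.1 FPKM and XRCC2 12.0 and 11.7 FPKM in DMSO and BB608. RAD51C and XRCC3 were about 4 to 5 times as abundant as XRCC2. Their main coding sequences were at 18.6 and 23.2 FPKM for RAD51C (0.31, implied SE 0.48) and at 14.3 and 15.2 FPKM for XRCC3 (0.09, implied SE 0.31) in the authors' deposited table. XRCC2 has a single coding sequence, so nothing is divided there, and its log2 fold was -0.04 (implied SE 0.16; p 0.827) in the authors' deposited table. In RAD51C 1 minor coding sequence went from 5.28 to 1.60 FPKM (log2 fold -1.73, p 0.09 in the deposited table), while 7 of the 8 tested were higher in BB608. RAD51AP1, an accessory protein of strand exchange, had the highest level of the recombination genes, 73.7 in DMSO and 67.3 FPKM in BB608. Its most abundant coding sequence had -0.32 (implied SE 0.25; p 0.189) in the deposited table. RAD54L, a motor protein of strand exchange, has 1 coding sequence, at 8.92 and 8.21 FPKM, with a log2 fold of -0.12 (implied SE 0.24) in that table.

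All 6 members grouped here as Fanconi genes had a higher gene sum in BB608, with log2 folds from 0.05 to 0.40 and a median of 0.10. Of their 37 tested coding sequences, 0 had an unadjusted p under 0.05 or a call. Of all kept genes 57.6% were higher, and of 18 other Fanconi genes, from the list described below, 12 were higher and 6 lower. With the most abundant coding sequence in place of the sum, the members FANCG (-0.19) and FANCI (-0.03) were lower in BB608 in the authors' deposited table. FANCA, FANCB and FANCG belong to the core complex that attaches ubiquitin to the FANCD2 and FANCI pair. FANCA had 34.3 in DMSO and 38.9 FPKM in BB608, over 23 coding sequences, none of which held more than 20.4% of the sum in DMSO. The main one, at 6.98 and 7.42 FPKM, had 0.09 (implied SE 0.56) in the deposited table. FANCB, on chromosome X at 14813966 to 14891191 of hg19 as deposited, has a single one, at 8.17 and 8.72 FPKM, with a log2 fold of 0.09 (implied SE 0.16; p 0.537) in the authors' deposited table. FANCG had 18.4 and 18.98 FPKM; its main coding sequence was lower in BB608 (12.7 and 11.2 FPKM, implied SE 0.20) and its second higher (3.82 and 6.05 FPKM).

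FANCI had 94.9 in DMSO and 101.8 FPKM in BB608, the highest level of any member after the Ku genes, and FANCD2 had 35.7 and 37.6 FPKM. The main coding sequence of FANCI was at 38.4 and 37.6 FPKM, with an implied SE of 0.46. The FANCD2 value rests on 1 coding sequence with 88.1% of the sum in DMSO. This sequence, at 31.4 and 33.98 FPKM, had a log2 fold of 0.11 and a p of 0.286 in the authors' deposited table. It had the smallest implied SE of the members, 0.11, which gives an interval from -0.09 to 0.32. A change of this coding sequence by 1.41-fold or more is outside that approximate interval, which does not cover the FANCD2 gene sum. BRIP1, the helicase FANCJ that binds BRCA1, had 8.22 and 10.8 FPKM. The main coding sequence of BRIP1, at 5.13 and 7.69 FPKM, had 0.58 (implied SE 0.68; p 0.393) in the deposited table.

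The damage signalling genes had 36 tested coding sequences, with 0 calls and 1 at an unadjusted p under 0.05, the main one of ATR. ATR, the kinase activated by single-stranded DNA at stalled forks and resected ends, lies at 142168076 to 142297668 on chromosome 3 of hg19 as deposited. Its most abundant coding sequence was at 16.9 FPKM in DMSO and 20.2 in BB608 in the authors' deposited table. There its log2 fold was 0.26, its p 0.018 and its q 0.997, and the implied SE of 0.11 gives an interval from 0.04 to 0.47. The next, at 10.2 and 6.95 FPKM, had -0.55 (p 0.526) in that table, and the ATR gene sum was 36.2 and 38.6 FPKM, a log2 fold of 0.09. ATM, the kinase activated at breaks by MRN, had gene sums of 18.3 and 18.7 FPKM, about 2 times below ATR. The main coding sequence of ATM had 0.10 (implied SE 0.17; p 0.567) in the deposited table.

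CHEK1, the kinase downstream of ATR, had coding sequences with folds far apart. Its gene sum was 29.5 in DMSO and 32.1 FPKM in BB608. The coding sequence that was most abundant in DMSO went from 13.7 to 4.36 FPKM (log2 fold -1.66, implied SE 1.41, p 0.298), and another from 2.51 to 9.77 FPKM (1.96, p 0.461) in the authors' deposited table. The first held 46.6% of the sum in DMSO and 13.6% in BB608. CHEK1 shares its locus identifier with STT3A, an oligosaccharyltransferase subunit, whose sum was 122.5 and 119.7 FPKM. The part that this shared locus plays in the CHEK1 values was not tested. CHEK2, the kinase downstream of ATM, had 28.7 and 27.1 FPKM over 18 coding sequences, the main one at 5.98 and 6.52 FPKM with 0.12 (implied SE 0.63) in that table. TP53BP1, which shields ends from resection and so favours end joining, had 37.5 and 37.3 FPKM. Its main coding sequence was at 9.56 and 13.2 FPKM, with 0.47 (implied SE 0.60) in the deposited table. Another of similar size was lower in BB608, at 10.3 and 9.16 FPKM (-0.17, implied SE 0.23). Of the 8 tested coding sequences 3 were higher and 5 lower. A minor coding sequence of TP53BP1, at 0.544 and 1.75 FPKM, had a p of 0.0635 in the deposited table.

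The genes of non-homologous end joining held the highest levels of all members. XRCC6 (Ku70) had a gene sum of 833 in DMSO and 824 FPKM in BB608, and XRCC5 (Ku80) 366 and 375 FPKM. Together they made up 58.0% of the summed FPKM of the 31 tested members in DMSO and 56.9% in BB608, and every other member was under 102 FPKM. The ratio of XRCC6 to XRCC5 was 2.277 in DMSO and 2.198 in BB608. Among XRCC6 coding sequences the main one was at 501 and 443 FPKM, or -0.18 log2 (implied SE 0.13; p 0.155) in the authors' deposited table. The other 2 tested ones went from 165 to 193 FPKM and from 168 to 187 FPKM, so the sum had -0.02. All 3 coding sequences of XRCC5 had folds between 0.03 and 0.09 in that table, the main one, at 209 and 215 FPKM, with an implied SE of 0.39.

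LIG4, the ligase that seals the ends, had the lowest mean of both groups among the members, at 7.48 in DMSO and 7.57 FPKM in BB608. It has 1 coding sequence, on chromosome 13 at 108859793 to 108870716 of hg19 as deposited. The log2 fold of LIG4 was 0.02 (p 0.875) in the authors' deposited table. Its implied SE of 0.11 gives an interval from -0.20 to 0.23. XRCC4, the scaffold that holds LIG4, had 11.6 and 13.5 FPKM; its tested coding sequence had 0.18 (implied SE 0.29) in the deposited table. NHEJ1, which encodes the XRCC4-like factor, had 10.9 and 10.7 FPKM. Its main coding sequence was higher in BB608, at 3.66 and 5.22 FPKM (log2 fold 0.51, implied SE 0.35, p 0.151 in that table), and 1 of similar size was lower, at 3.16 and 1.03 FPKM. NHEJ1 shares its locus identifier with SLC23A3.

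PRKDC, the catalytic subunit of the DNA-dependent protein kinase that Ku recruits, had the largest fold of all 32 members and no test. Its 4 coding sequences are the only 4 of the 82428 with a failed status in the authors' deposited table, where their log2 fold is set to 0 and their p and q to 1. Their FPKM values are given all the same. The first went from 21.0 to 28.3 FPKM from DMSO to BB608, the second from 19.2 to 29.0 FPKM and the third from 4.21 to 7.34 FPKM, and the fourth is listed at about 0 in both. The gene sum was 44.5 and 64.7 FPKM, a log2 fold of 0.54. All 3 sequences with signal were higher in BB608. No error, p or interval can be given for them, and what a failed status does to the FPKM estimate was not tested. MCM4, a replicative helicase subunit whose gene starts next to PRKDC, had 526 FPKM in both groups. The PRKDC locus spans 48685668 to 48872743 on chromosome 8 of hg19 as deposited.

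Coding sequences of 1 gene mostly pointed both ways. Of the 26 members with several tested coding sequences, 24 (92.3%) had some higher and some lower in BB608. The share was 79.6% of 7878 such genes in the table, not matched for how many tested coding sequences a gene has. The exceptions among the members were BRCA2 and XRCC5, with all of theirs higher. Of all 167 tested coding sequences 100 were higher in BB608 (59.9%), against 54.3% in the table. Large folds went with large errors. The 29 member coding sequences with an implied SE under 0.3 had a median absolute log2 fold of 0.16 at a median of 12.0 FPKM, the 70 with 0.3 to 1 had 0.35 at 4.71 FPKM, and the 61 above 1 had 0.96 at 1.38 FPKM. The implied SE is computed from the fold itself, so this relation is a description. For 7 others, near 0 FPKM in a group, no SE was usable. In addition, 14 of 32 members share the deposited locus with another named gene, such as ATM with NPAT and BRCA1 with NBR1, and its part in the values was not tested.

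**Figure D4:**
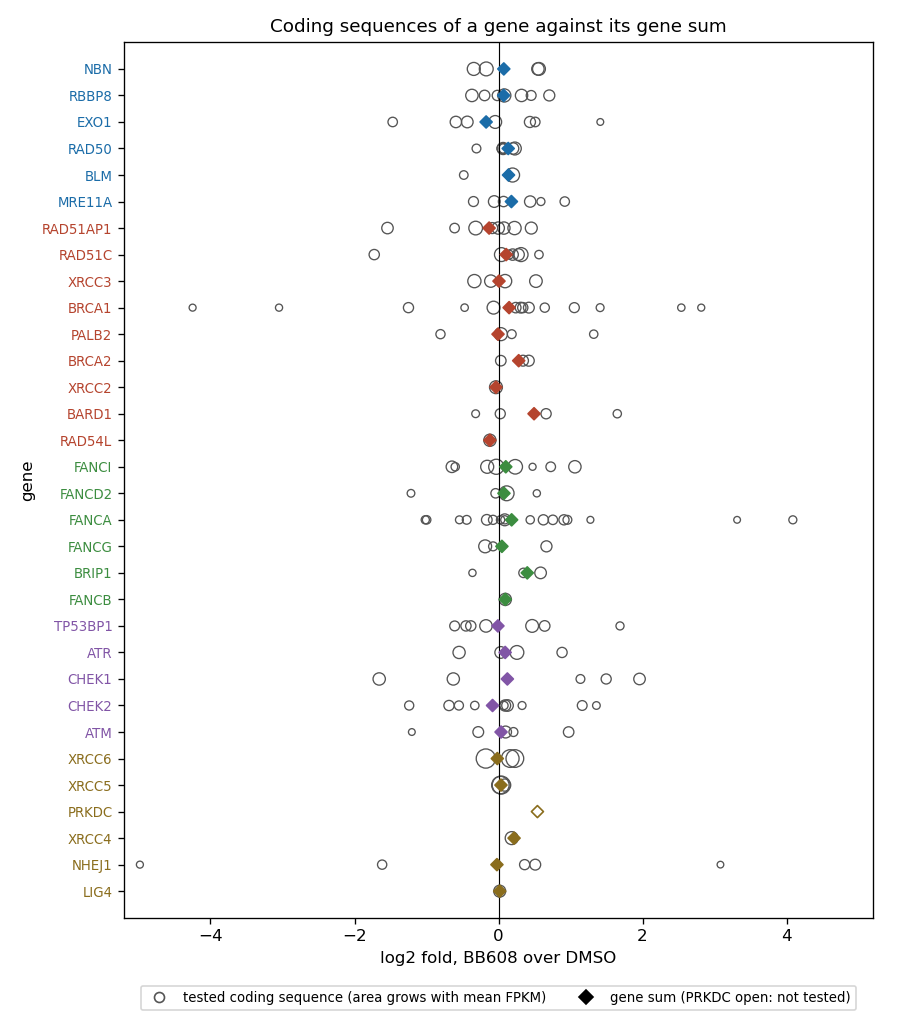
Log2 fold (BB608 over DMSO) of each tested coding sequence (open circles, area growing with mean FPKM) and of the gene sum (diamonds, coloured by role; open for PRKDC, which has no test). Small circles spread widely on both sides of 0 while gene sums stay between -0.17 and 0.54; 9 tested coding sequences beyond 5 log2 are not drawn.

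Other genes of the same pathways also had no call. A list of 85 held further recombination, Fanconi, signalling and end joining genes; 84 of them were listed, 81 had a test and 0 were called by Cuffdiff's q in the authors' deposited table. At an unadjusted p under 0.05 there were 8 (9.88%), against 9.49% of all tested genes. The lowest p was that of TONSL, which with MMS22L protects stalled forks. Its only coding sequence went from 4.47 to 6.31 FPKM with BB608, which that table gives as 0.50 log2 at p 0.0034 and q 0.471 (implied SE 0.17). The core complex gene FANCF, also with 1 coding sequence, had 2.97 and 3.64 FPKM (log2 fold 0.29, implied SE 0.14, p 0.031 in the deposited table). XRCC1, a scaffold of single-strand break repair, had a coding sequence at 1.31 and 3.09 FPKM (p 0.02), and PSMC3IP, a cofactor of strand exchange, one at 11.9 and 7.60 FPKM (p 0.0402) in that table. The remaining 4 were REV3L, MAD2L2, TIPIN and FAN1, each through a coding sequence with under 6 FPKM in both groups. The list's 81 kept genes had a median log2 fold of 0.06, with 57 higher and 24 lower in BB608. Their folds ran from -0.69 to 1.42, a wider range than that of the members. The list is longer, however, and its gene with the highest fold was at only 1.37 and 3.66 FPKM, below the level of every member. Of the list's kept genes 70.4% were within 0.25 of 0, close to the 70.1% of all kept genes.

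Many recombination and Fanconi genes are transcribed with the cell cycle, so proliferation genes are given beside them. Of 33 tested G1/S and DNA replication genes 0 were called and 3 had an unadjusted p under 0.05, with a median log2 fold of 0.06. For 32 tested G2/M and mitosis genes these figures were 0, 3 and 0.06. Of all tested genes 1.06% had a call and 9.49% an unadjusted p under 0.05. Neither list differed in its median from the repair genes by more than 0.02. As a check of the label, all 10 squamous epithelial markers looked at were present, from 7.56 FPKM (DSG3 in BB608) to 2472 FPKM (KRT5 in BB608). The 6 fibroblast markers were each under 0.7 FPKM. Of the blood and endothelial markers, CD68 (22.9 and 20.3 FPKM) and CDH5 (3.82 and 4.09 FPKM) had signal and PTPRC, CD3E and VWF were under 0.1 FPKM.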

How the data were processed

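The authors sequenced total RNA after removal of ribosomal RNA with a stranded kit, per the labels' protocols, and per the submitters' processing notes used TopHat2 2.0.11, Cufflinks 2.2.1 and Cuffdiff with build hg19; which annotation was used, and whether strand was, is not stated there. The deposited table holds FPKM per coding sequence pooled over each group, and the authors' log2 fold, test statistic (a score), p-value and q-value. Folds recomputed from the FPKM differed from the deposited log2 fold by at most 4.72e-05 where both groups were above 0.001 FPKM, and its q matched a Benjamini-Hochberg adjustment within 5.23e-07. FPKM was summed by gene name. The implied SE is the fold over the statistic, divided by 1.73, the median ratio of the normal quantile of p to the statistic over 33139 coding sequences (quartiles 1.64 and 1.78); intervals are normal. This step and the adjustment were run on simulated data with normal p-values and 1 constant factor. That checks the calculation and cannot show how well the implied SE suits the real p-values. Some real intervals did not reach 0 although Cuffdiff's p was above 0.05, such as -8.46 to -1.50 for a minor NHEJ1 coding sequence (p 0.154). Members, lists, motifs and the naming rule (all members, their main and low-p coding sequences, other pathway genes with p under 0.05) were chosen with earlier results of these data known; the minor coding sequences named in other members were picked after their values were seen. The design foresaw limma for values per library, and the authors' q for a pooled table, which applied. Depth is unknown. Alternatives were pseudocounts, filters, summaries per gene and scaling. Python 3.11.15, pandas 2.3.3 and scipy 1.17.1 were used.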

Additional observations from a re-analysis of the deposited data

Results flagged for a closer look

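PRKDC stands out among values the authors did not test: its gene sum was 64.7 FPKM in BB608 against 44.5 FPKM in DMSO, from coding sequences of failed status. One untested coding sequence of BRCA1 was listed at 0.536 FPKM in BB608 and at about 0 in DMSO. Another untested one of BRCA1 went the other way, at 0.472 FPKM in DMSO and about 0 in BB608.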

How the results depend on the processing

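No paired analysis was possible because each group is given as a single pooled value, and so no replicate was left out. Calls among the members and among the other pathway genes were 0 under every setting run: a mean of at least 1 or 5 FPKM with the q recomputed, a bound of 1 log2, and genes with 1 tested coding sequence adjusted alone, the last chosen after seeing the data. The 2 genes at an unadjusted p under 0.05 were 2 under both filters. The median of the members' gene sum folds ran from 0.039, when scaled so that the median of kept genes is 0, to 0.087, with the most abundant tested coding sequence per gene. A gene sum has no SE, so moves were set against the implied SE of the gene's most abundant tested coding sequence, 0.11 to 1.41 log2. Counts on that borrowed scale do not measure how stable the gene sums are. For the 31 genes with such an SE, 155 settings were run. In 149 the gene sum fold moved by less than 1 such SE and in 6 by more. It changed sign in 13, none of a called fold. PRKDC has no SE, and its 3 settings gave 0.51 to 0.54. All 6, in BRCA1, FANCG, ATR, CHEK1, XRCC6 and NHEJ1, and 10 of the sign changes came with the most abundant coding sequence (the signs in BRCA1, PALB2, MRE11A, NBN, FANCG, FANCI, CHEK1, CHEK2, TP53BP1 and NHEJ1); the cause was not tested. With the scaling, 20 of 32 sums, PRKDC included, were higher in BB608.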
